A study of Mus musculus with 4 samples.

Results

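Keratin and keratin-associated protein genes were located on the population-based replication timing (RT) profile of mouse embryonic stem cells (mESCs). The members were all protein-coding genes of chromosomes 1 to 19 in the GENCODE vM21 annotation whose symbol is Krt followed by a number (Krt genes) or starts with Krtap (Krtap genes), which gave 110 of 20807 genes, 53 Krt and 57 Krtap. They lie in 6 clusters, 1 per chromosome, with 50 members on chromosome 11, 26 on chromosome 15, 24 on chromosome 16, 5 on chromosome 7, 3 on chromosome 10 and 2 on chromosome 1. The cells were F121-9, a diploid ESC line from a cross of the mouse strains 129 and Castaneus, labelled hybrid cas/129 and kept in N2B27 medium with 2i and LIF, which hold mESCs in an undifferentiated state. Replicating DNA was labelled with BrdU, cells were sorted by DNA content into an early and a late S-phase fraction, and each fraction was sequenced in 2 libraries, 4 in all. RT is the log2 enrichment of early over late reads in a 50 kb bin, so that a value above 0 is early replicating and a value below 0 late replicating. The deposited profile has 1 RT value per bin for all 4 libraries and both parental genomes together, and its read depth is unknown. No test between samples could therefore be made, and the RT of a gene is the value of the bin that holds its start.

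Keratins are the intermediate filament proteins of epithelial cells. A type I and a type II keratin pair to build each filament, and different pairs are used by simple epithelia, the layers of the epidermis and the parts of the hair follicle. Keratin-associated proteins are small proteins, many of them rich in cysteine or in glycine and tyrosine, that form the matrix around the keratin filaments of the hair shaft. Type I genes lie side by side on mouse chromosome 11 and type II genes on chromosome 15, with the type I gene Krt18 next to its type II partner Krt8, while Krtap genes lie inside the type I cluster and in arrays of their own. RT is known to follow large chromosome domains, and tissue-specific genes often replicate late in cells that do not use them. RNA of these cells was not analysed here.

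The sequence directly before the start of a few members is shown, from RefSeq promoter windows on GRCm38.p6, which has the same coordinates as mm10. The 6 genes shown are members at the early and late extremes, Krt42 and Krtap4-13 for chromosome 11, Krtap11-1 and Krtap20-2 for chromosome 16, and for chromosome 15 its earliest members, Krt8 and Krt18, which share a bin. Each line gives 100 bases, 5′ to 3′ on the strand of the gene, directly before the RefSeq or the GENCODE start, whichever lies further upstream, and TATAAA, the core of the TATA box that positions transcription starts in many tissue-specific genes, is in capitals. The windows are chr11:100269952-100270051 (minus strand) for Krt42, chr11:99809897-99809996 (minus strand) for Krtap4-13, chr15:102004483-102004582 (minus strand) for Krt8, chr15:102028080-102028179 (plus strand) for Krt18, chr16:89571184-89571283 (minus strand) for Krtap11-1 and chr16:89205761-89205860 (plus strand) for Krtap20-2. The other members at these extremes were Krt17 on chromosome 11 and Krt6a and Krt6b on chromosome 15.
Krt42: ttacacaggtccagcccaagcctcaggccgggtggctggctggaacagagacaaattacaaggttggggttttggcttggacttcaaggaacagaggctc
Krtap4-13: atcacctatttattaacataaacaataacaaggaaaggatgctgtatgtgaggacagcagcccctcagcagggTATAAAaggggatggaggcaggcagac
Krt8: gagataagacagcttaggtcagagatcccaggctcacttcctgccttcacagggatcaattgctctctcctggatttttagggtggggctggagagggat
Krt18: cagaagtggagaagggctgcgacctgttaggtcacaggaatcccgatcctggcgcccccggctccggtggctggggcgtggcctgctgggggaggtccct
Krtap11-1: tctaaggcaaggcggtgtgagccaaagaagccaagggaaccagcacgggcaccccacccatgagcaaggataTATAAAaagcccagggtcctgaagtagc
Krtap20-2: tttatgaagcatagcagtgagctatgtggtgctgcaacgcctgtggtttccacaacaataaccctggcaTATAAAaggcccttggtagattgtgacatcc
The bins of Krt42, Krt8 and Krt18 were early replicating, with RT values of 3.55, 3.06 and 3.06, and the 100 bases printed for them hold no TATAAA, although the full RefSeq windows of Krt42 and Krt8, which reach 250 bases before to 50 after the RefSeq start, do hold it. The bins of Krtap4-13, Krtap11-1 and Krtap20-2 were late replicating, with RT values of -2.71, -1.93 and -4.10, and the 100 bases printed for each hold TATAAA on the gene strand. All the early genes shown are Krt genes and all the late ones Krtap genes, so RT and gene class cannot be told apart among them. The starts used differ, as the printed bases end at the RefSeq start for Krt42 and Krtap4-13, at the GENCODE start for Krt8 and Krt18, whose RefSeq starts lie 140 and 36 bases away, and at a start common to both for Krtap11-1 and Krtap20-2.

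All 110 members had an RT value, and 43 of them (39.1%) had an RT above 0. By comparison, 74.1% of the 20732 protein-coding genes with a value and 42.1% of the 50 kb bins of these chromosomes had an RT above 0. The exact 95% binomial interval of the member share ran from 29.9% to 48.9%, which covers counting only, and members that share a bin are not independent. The 110 starts fell into 57 bins, 22 of them with RT above 0 (38.6%), and 84 members shared a bin with another member, up to 7 in a bin. The median RT of the members was -0.71, with quartiles of -2.43 and 1.16, against a median of 2.35 and quartiles of -0.13 and 3.33 for all protein-coding genes and a median of -0.85 for bins. The bin-to-bin noise, estimated as an SD of 0.155 from 19284 bins in flat stretches of the profile, sets 0.43 as the difference that 2 bins must exceed to lie beyond noise, and 0.30 as that of a bin from 0. By that measure 38 members were early replicating, 62 late replicating and 10 not separable from 0.

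The members differed by gene class and by locus. Of the 53 Krt genes, 37 (69.8%) had an RT above 0, with a median of 0.89, and none had an RT below -2. The share of all protein-coding genes above 0 was 74.1%, with a median of 2.35. Of the 57 Krtap genes, 6 (10.5%) had an RT above 0, with a median of -2.28, and 39 had an RT below -2. All 39 lie on chromosomes 11 and 16. Of the 10 Krtap genes elsewhere, 6 (60%) had an RT above 0, with a median of 0.15. The ranges overlapped, since Krt genes ran from -1.39 to 3.55 and Krtap genes from -4.10 to 2.18. Krtap genes are also shorter, with a median length of 0.892 kb against 6.59 kb for Krt genes and 17.6 kb for all protein-coding genes. The plot of RT by chromosome shows both classes.

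**Figure D1:**
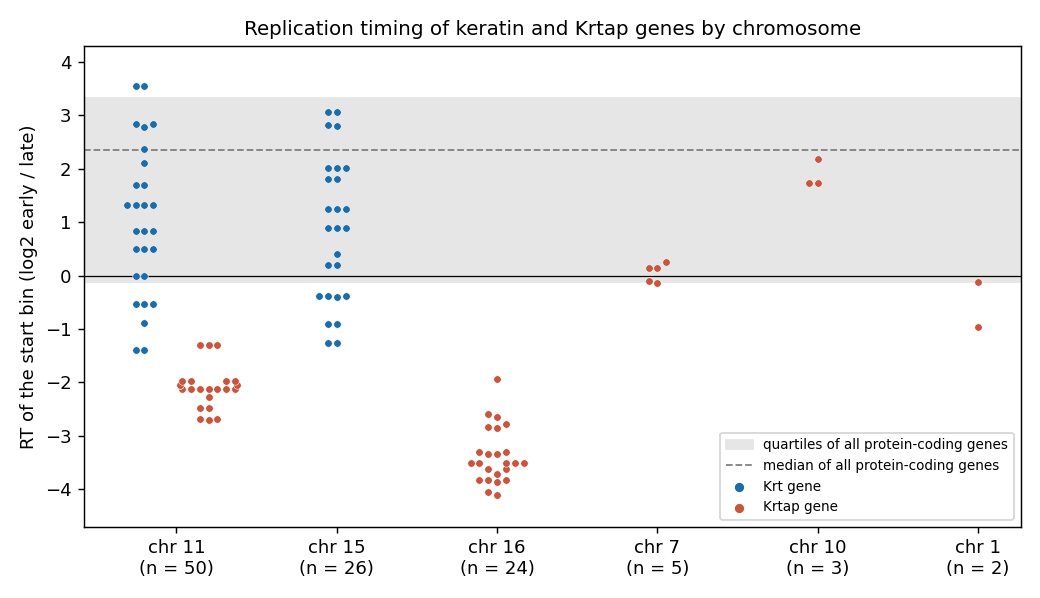
RT of the start bin (log2 early over late, vertical axis) of each of the 110 members by chromosome (horizontal axis), with Krt genes in blue and Krtap genes in red; the gray band and dashed line give the quartiles and the median of all protein-coding genes. On chromosome 11 every Krtap gene lies at or below -1.29, all 24 Krtap genes of chromosome 16 lie between -4.10 and -1.93, and the 10 Krtap genes of the other chromosomes lie between -0.97 and 2.18.

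The type I cluster on chromosome 11 runs from Krt222 to Krt42 over 1026 kb, in 22 bins. Of its 50 members 19 (38%) had an RT above 0, against 87.1% of the protein-coding genes of chromosome 11, and the median was -1.09, or -0.53 with each bin counted once. RT formed a valley across it. The 10 bins on the left of the cluster had a mean RT of 3.54 ± 0.131 and those on the right 3.71 ± 0.104 (SD over the bins of a 500 kb flank), whereas RT inside the cluster went down to -2.84 in the bin chr11:99700001-99750000. Of the 21 steps between neighboring bins, 15 were beyond noise. RT crossed 0 at chr11:99424996 and again at chr11:100050946, 626 kb apart.

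On the left side of the valley RT fell in 7 consecutive steps over 350 kb, all but the first beyond noise, from 2.78 to -2.13 in the first bin with Krtap genes, and the members before that bin are all keratins. Krt222 had an RT of 2.78 and Krt24 of 2.37. Krt25 and Krt26, keratins of the inner root sheath, the layer that guides the growing hair, had an RT of 1.69. The next bin, at 0.84, holds Krt27 and Krt28, also of the inner root sheath, and Krt10, the type I keratin of the suprabasal epidermis. The first crossing lies in the bin of Krt12, the keratin of the corneal epithelium, and Krt20, found in intestinal epithelium, whose RT of -7.11e-05 is not separable from 0. Krt23 followed at -0.88. Krt39 and Krt40, expressed late in the hair shaft, had the lowest RT value of the Krt genes, -1.39, not separable from that of Krt6a and Krt6b on chromosome 15.

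The floor of the valley is a block of Krtap genes. From Krtap3-3 to Krtap17-1, 23 Krtap genes of 0.593 to 1.89 kb lie within 443 kb with no Krt gene between them. None of the 23 had an RT above 0, 16 were below -2, and the range was -2.71 to -1.29. The bin with the most members, chr11:99550001-99600000, holds Krtap3-3, Krtap3-2, Krtap3-1, Krtap1-5, Krtap1-4, Krtap1-3 and Krtap9-3 at -2.13. It was followed by -1.96 for Krtap2-4, Krtap4-1, Krtap4-2 and Krtap4-7, a step within noise, and by -2.28 for Krtap4-6. The lowest values of members of chromosome 11 were -2.71 (Krtap4-13), -2.68 (Krtap4-8 and Krtap4-9) and -2.48 (Krtap4-16 and Krtap9-1), which were not separable. RT then rose through -2.05 (Krtap31-1, Krtap31-2 and Krtap9-5), a step just beyond noise, to -1.29 (Krtap29-1, Krtap16-1 and Krtap17-1). The 18 protein-coding genes inside the cluster that are no members lie on this floor too, at -2.84 to -1.96, and none has a keratin name in the annotation.

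On the right side RT rose in 9 consecutive steps, from -2.71 to 3.55 over 450 kb, all but the first beyond noise. The first keratins there are those of the hair shaft, with Krt33a, Krt33b and Krt34 at -0.53, then Krt31, Krt32 and Krt35 at 0.49. The step of 1.02 between these bins, which separates the neighbors Krt34 and Krt31, was the largest between neighboring members of chromosome 11. Krt31 starts close to the bin border, and its mean RT over the gene body was -0.02, since its body reaches into the bin of Krt34. The bin at 1.32 holds Krt36 of the hair shaft, Krt13 of the oral and esophageal mucosa, Krt15 of basal cells and follicle stem cells, and Krt19 of simple epithelia. Krt9, the keratin of palm and sole epidermis, had an RT of 2.10. Krt14, the main type I keratin of basal epidermis, and Krt16, induced on wounding, shared a bin at 2.84. Krt17, a keratin of hair follicles and wounded skin, and Krt42 had the highest RT of all members, 3.55, and 96.9% of autosomal bins were later. Beyond them Eif1, a translation initiation factor, had an RT of 3.59 and Jup, the desmosomal protein plakoglobin, of 3.78, while on the left Smarce1, a chromatin remodeling subunit, had 2.78 and the chemokine receptor gene Ccr7 3.27.

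The type II cluster on chromosome 15 runs from Krt80 to Krt18 over 658 kb, in 14 bins, and RT formed a shallower valley. Of its 26 members 18 (69.2%) had an RT above 0, with a median of 0.89 and a range of -1.26 to 3.06, against 85.7% of the protein-coding genes of chromosome 15. The bins on the left had a mean RT of 2.98 ± 0.635 and those on the right 3.49 ± 0.199 (SD over the bins of a 500 kb flank). RT crossed 0 at chr15:101550285 and chr15:101808959, 259 kb apart (128 kb with the median RT of bins, -0.85, as the border), and 10 of 13 steps between bins were beyond noise.

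RT fell on the left over 300 kb, in 6 steps from 2.82 at Krt80, all but the last beyond noise. Krt7, a keratin of simple and glandular epithelia, Krt87, a hair keratin, and Krt88 had an RT of 2.01. The hair keratins Krt81, Krt86 and Krt83 followed at 1.25 and Krt84, found in the hair cuticle and tongue, at 0.40. Krt82 of the hair cuticle, Krt90 and Krt75, the keratin of the companion layer around the inner root sheath, had an RT of -0.39. The lowest point was the bin chr15:101650001-101700000 at -1.26, which holds Krt6b and Krt6a, keratins induced in activated keratinocytes.

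RT then rose on the right over 350 kb, in 7 steps, all but the first and the last beyond noise. Krt5, the main type II keratin of basal epidermis, and Krt71 of the inner root sheath had an RT of -0.92. Krt72 had -0.41, followed by 0.19 for Krt73, both keratins of the inner root sheath, with Krt2 of upper epidermal layers in the bin of Krt73. Krt1, the type II keratin of the suprabasal epidermis, lay at 0.89 with Krt77 and Krt76, the latter found in oral mucosa. Krt4, a mucosal keratin, and Krt79 had an RT of 1.81 and Krt78 of 2.80. That step of 0.99 between the bins of Krt79 and Krt78 was the largest between neighboring members of chromosome 15, and the mean RT over the body of Krt78 was 2.31. Krt8 and Krt18, the keratin pair of simple epithelia and the first keratins of the embryo, shared the bin chr15:102000001-102050000 at 3.06. Eif4b, another translation initiation factor 45.6 kb further on, had an RT of 3.43.

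**Figure D2:**
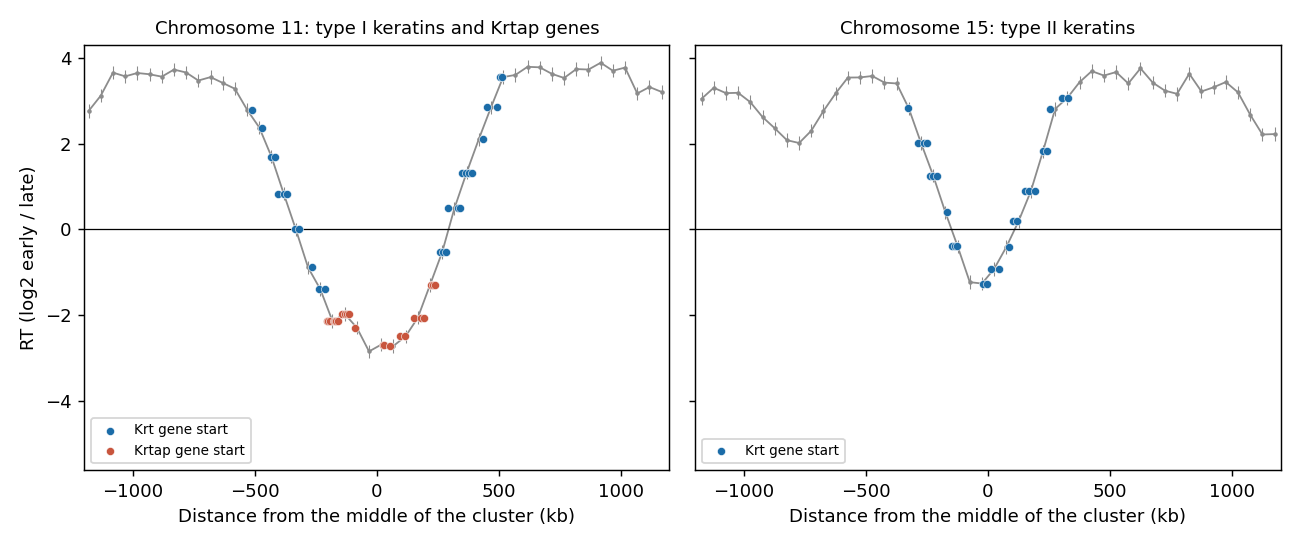
RT (log2 early over late) of 50 kb bins against distance from the middle of the cluster in kb, for chromosome 11 (left) and chromosome 15 (right). Gray points and vertical lines are bins and the noise SD of 0.155, and colored points are starts of Krt (blue) and Krtap (red) genes; RT goes from 2.78 or more at the outermost genes down to -2.84 on chromosome 11 and to -1.26 on chromosome 15 and back.

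The sides of both valleys were compared with those elsewhere. A limb was defined as a stretch over which RT passes from 2 to -1 in either direction, and the 903 limbs of chromosomes 1 to 19 had a median length of 274 kb, with quartiles of 206 and 437 kb. The limbs of the chromosome 11 cluster were 184 kb on the left (16.3 log2 per Mb) and 175 kb on the right (17.2 log2 per Mb), and 11% and 5.98% of all limbs were shorter. Those of the chromosome 15 cluster were 186 kb on the left and 222 kb on the right, with 12.3% and 33.0% of limbs shorter, and the right one lay within the quartiles of all limbs. The limbs run through the clusters of chromosomes 11 and 15, and many members there lie close to a position where RT crosses 0. In all, the start of 43 members (39.1%) was within 100 kb of such a position, against 12.1% of all protein-coding genes. The 43 also include all members of chromosomes 1 and 7, and those of chromosome 7 had RT values within noise of 0. Counted among the 795 late stretches of at least 200 kb with early replicating bins on both sides, the chromosome 11 valley (chr11:99400001-100050000, 650 kb) had 49 protein-coding starts, or 75.4 per Mb, the highest density of all. The median density of these stretches was 2.5 starts per Mb. The chromosome 15 valley (chr15:101550001-101800000, 250 kb) had 40 starts per Mb and ranked 10. Genes chosen as clustered families are dense by that choice, so both ranks are descriptions.

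The 24 members of chromosome 16, all Krtap genes, lie within a late replicating domain. Their median RT was -3.51 with a range of -4.10 to -1.93, none had an RT above 0 and 23 were below -2, against 69.3% of the protein-coding genes of this chromosome with an RT above 0. Krtap24-1, the first along the chromosome, and Krtap26-1 had an RT of -3.33. RT was higher over Krtap27-1 at -2.78, Krtap13-1 at -2.65 and Krtap13 at -2.85, then went down through Krtap14 and Krtap15 at -3.31 to the 5 genes Krtap19-1 to Krtap19-5 at -3.51. Krtap19-9b (-3.71), Krtap16-3 (-3.87) and the bin of Krtap22-2, Krtap6-1 and Krtap6-5 (-3.83) differed by less than the noise. The family numbered Krtap6 was spread over 3 bins, with Krtap6-3 at -4.05 and Krtap6-2, beside Krtap21-1, at -3.62. Krtap20-2 had the lowest RT value of all 110 members, -4.10, and 1.31% of autosomal bins were later. That value was not separable from those of Krtap6-3, Krtap16-3, Krtap19-9b and the bin of Krtap22-2, Krtap6-1 and Krtap6-5.

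At the right end of this array RT rose to Krtap8-1 at -2.84, Krtap7-1 at -2.58 and Krtap11-1 at -1.93. The largest change between neighboring members, 0.78, was the step between the bins of Krtap6-2 and Krtap8-1. Over the 959 kb of the array 6 of 19 steps between bins were beyond noise. RT crossed 0 at chr16:89736323, 165 kb beyond Krtap11-1 (103 kb with the median RT of bins as the border), and on the other side at chr16:87810201, 802 kb before Krtap24-1. The left flank was late too, with a mean RT of -3.82 ± 0.240, against -3.39 ± 0.603 over the 20 bins of the array. This flank held the claudin genes Cldn8 (-3.52) and Cldn17 (-3.37) and the glutamate receptor gene Grik1 (-4.06). The right flank had a mean of 0.73 ± 1.35 (SD over 10 bins) and no protein-coding start in its 500 kb. The next genes there, Tiam1, an activator of the GTPase Rac, and the superoxide dismutase gene Sod1, had RT values of 3.31 and 3.36. The limbs of this domain, 310 and 345 kb, were longer than the median limb but lay within the quartiles of all limbs.

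The remaining 10 Krtap genes lie in 3 places that differed in RT. On chromosome 7 the cysteine-rich Krtap5 genes had values of 0.25 (Krtap5-2), 0.15 (Krtap5-3 and Krtap5-5), -0.13 (Krtap5-1) and -0.11 (Krtap5-4), all 5 within noise of 0 and of one another. On chromosome 10 Krtap12-1 had an RT of 2.18 and Krtap10-4 and Krtap10-10 of 1.74, the only Krtap genes above 0 beyond noise. Their cluster, with a mean of 1.86 over 3 bins, was still below its flanks of 2.81 ± 0.355 and 2.89 ± 0.536 (SD over 10 bins each). On chromosome 1 Krtap28-10 had an RT of -0.13 and Krtap28-13 of -0.97, a difference of -0.84 between neighboring bins that was beyond noise. These lie at the edge of a late domain, with a mean RT of 0.10 ± 1.18 on the left and of -3.23 ± 0.768 on the right (SD over 10 bins each). The left flank is not level, as its bins ran from -2.10 to 1.37.

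**Figure D3:**
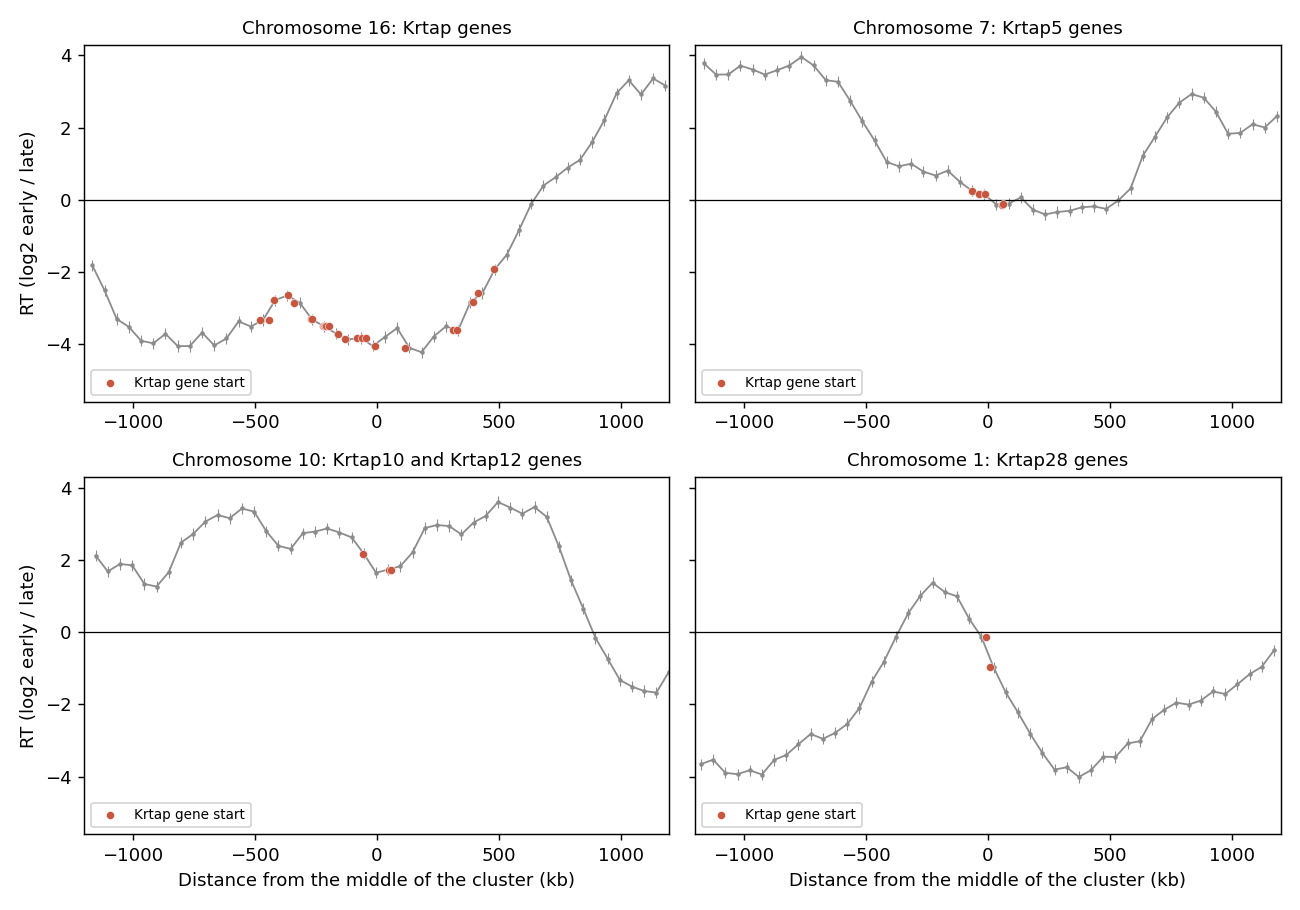
RT (log2 early over late) of 50 kb bins against distance from the middle of the cluster in kb, for the Krtap genes of chromosomes 16, 7, 10 and 1. Gray points and vertical lines are bins and the noise SD, and red points are Krtap gene starts, which lie at -4.10 to -1.93 on chromosome 16, within noise of 0 on chromosome 7, at 1.74 to 2.18 on chromosome 10 and at -0.13 and -0.97 on chromosome 1.

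Grouped by the tissue in which they are used, the Krt genes overlapped widely in RT. The counts above 0 stand beside 74.1% of all protein-coding genes, and the groups are small. The simple epithelial keratins Krt7, Krt8, Krt18, Krt19 and Krt20 had a median RT of 2.01 and 4 of 5 had an RT above 0. Basal keratins (Krt5, Krt14 and Krt15) had a median of 1.32, with 2 of 3 above 0, and suprabasal keratins (Krt1, Krt2, Krt9, Krt10 and Krt77) a median of 0.89, with 5 of 5 above 0. Keratins of activated or appendage epithelium (Krt6a, Krt6b, Krt16, Krt17 and Krt75) spanned nearly the whole range, from -1.26 to 3.55, and 2 of 5 were above 0. Those of mucosa and cornea (Krt4, Krt12, Krt13, Krt76 and Krt78) had a median of 1.32, with 4 of 5 above 0. The 7 inner root sheath keratins had a median of 0.84, with 5 above 0. The 15 hair shaft keratins had a median of 0.49 and a range of -1.39 to 2.01, with 9 above 0. All groups except the suprabasal one, which ran from 0.19 to 2.10, held genes on both sides of 0 or at it, and the ranges of all groups overlapped.

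**Figure D4:**
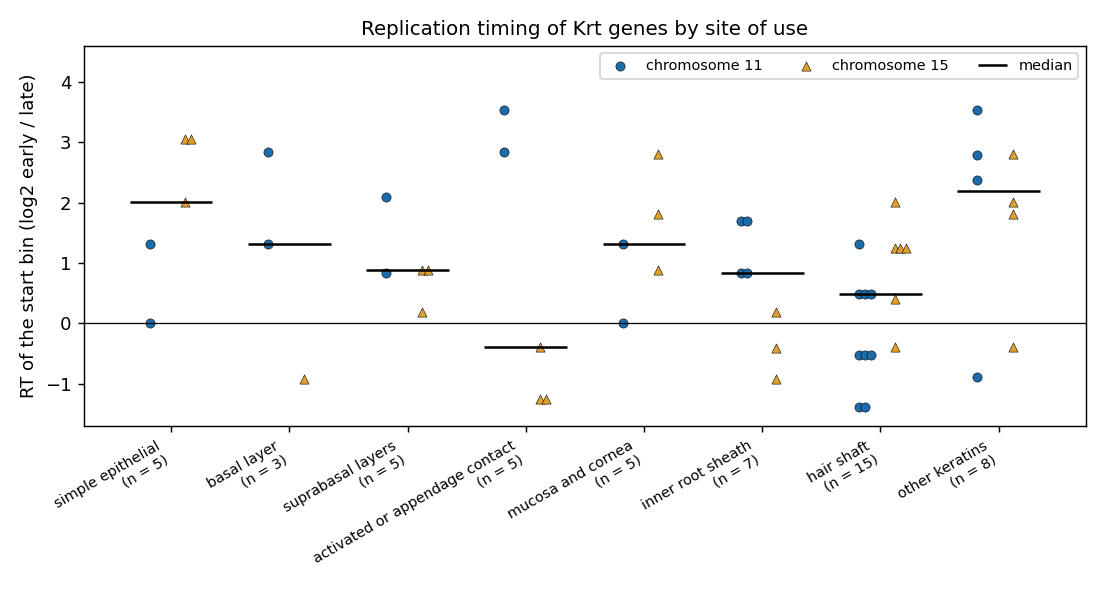
RT of the start bin (log2 early over late, vertical axis) of the 53 Krt genes by the tissue in which they are used (horizontal axis), with circles for chromosome 11, triangles for chromosome 15 and lines for the group medians. The groups overlap, with medians from -0.39 for keratins of activated or appendage epithelium to 2.19 for the 8 keratins placed in no group.

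Keratins that pair in a filament were compared as type II and type I partner. Krt8 and Krt18 share a bin and thus a value. Krt1 at 0.89 and Krt10 at 0.84 differed by 0.05, within noise, although they lie on different chromosomes. Krt4 at 1.81 and Krt13 at 1.32 differed by 0.50, just beyond noise. The basal pair differed in sign, since Krt5 was late replicating at -0.92 and Krt14 early replicating at 2.84, a difference of -3.75. Krt6a at -1.26 and Krt16 at 2.84 differed by -4.10. In 1 of the 4 pairs with separate bins the partners were therefore not separable in RT.

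GC content and strand did not enter the choice of members. Across the bins of the chromosome 11 span, GC content and RT had a Pearson r of 0.74 and a Spearman rho of 0.82 (n = 22 bins), across those of chromosome 15 an r of 0.66 and a rho of 0.60 (n = 14), and across those of chromosome 16 an r of 0.75 and a rho of 0.68 (n = 20). Neighboring bins are not independent, and the same relation held over the autosomal bins at large, with an r of 0.73 and a rho of 0.75 (n = 47923), so these values are descriptions. The median GC content of the start bins was 41.5% for the Krtap genes of chromosome 11, 38.4% for those of chromosome 16 and 49.1% for the Krt genes of chromosome 15. GC content was not tested as a factor in any RT value. Of the 110 members, 91 lie on the minus strand, 45 of 50 on chromosome 11, 22 of 26 on chromosome 15 and 19 of 24 on chromosome 16, while 10454 of all 20807 protein-coding genes do. Krt18, the type I gene at the end of the type II cluster, lies on the plus strand, as do Krt7, Krt86 and Krt88 of that cluster.

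Promoters were searched for TATAAA in RefSeq windows of 250 bases before to 50 after the start, which 87 of the 110 members had. On either strand TATAAA was present in 61 of 87 (70.1%), against 2027 of 15687 windows (12.9%) of all protein-coding genes. Limited to the gene strand and to 45 to 16 bases before the start, it was present in 45 of 87 (51.7%), against 462 windows (2.95%) of all. Krtap genes held it more often than Krt genes, 82.4% against 52.8% of windows on either strand and 62.7% against 36.1% at the limited position. By chromosome, the shares on either strand were 80.5% on chromosome 11, 37.5% on chromosome 15, 69.6% on chromosome 16 and 85.7% (6 of 7) on chromosomes 1, 7 and 10 together, whose members lie at -0.97 to 2.18. Among members with RT above 0 the share on either strand was 55.6%, and among the others 76.7%. Of the 43 members above 0, 37 are Krt genes, and of the other 67 members 51 are Krtap genes. The 2 shares therefore mix RT with gene class. They were not split by class, and a link of TATAAA to RT was not tested. Among all protein-coding genes with RT at or below 0 it was 24.8%, and among those with RT below -2 it was 31.5%. The median number of CG dinucleotides per window was 3 for members (5 for Krt and 2 for Krtap genes), 15 for all genes and 3 for all genes with RT at or below 0. No other motif was searched, and a match of these letters is not a measured binding site.

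Other genes of skin and of the filament family were set beside the members. Among all protein-coding genes 74.1% had an RT above 0. The 15 other intermediate filament genes, scattered over 11 chromosomes, had a median RT of 3.11, and 14 had an RT above 0. The exception was Vim, which encodes the mesenchymal filament protein vimentin, at -0.85. The list for the epidermal differentiation complex and cornified envelope holds 49 genes of a cluster on chromosome 3. Most of them encode proteins of the outermost skin layer, and envelope genes on other chromosomes are not in it. All 49 were late replicating, with a median of -3.36 and a range of -4.19 to -0.66. Loricrin (Lor) had an RT of -2.25, involucrin (Ivl) of -3.36 and filaggrin (Flg) of -2.27. Like the Krtap genes of chromosomes 11 and 16 they are clustered, and their 49 starts lie in 26 bins. Of the 17 desmosomal genes, which anchor keratin filaments at cell junctions, 10 had an RT above 0 with a median of 0.94, and Dsp, the desmoplakin gene, had 2.78. Among the 14 regulators of skin and hair 13 had an RT above 0 with a median of 2.79, and Trp63, the master regulator of stratified epithelium, was the exception at -3.08. The transglutaminases Tgm1, Tgm3 and Tgm5, which crosslink the cornified envelope, had RT values of 3.70, 0.59 and 2.96. Members of each list differ in number and clustering, and no difference between lists was tested.

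**Figure D5:**
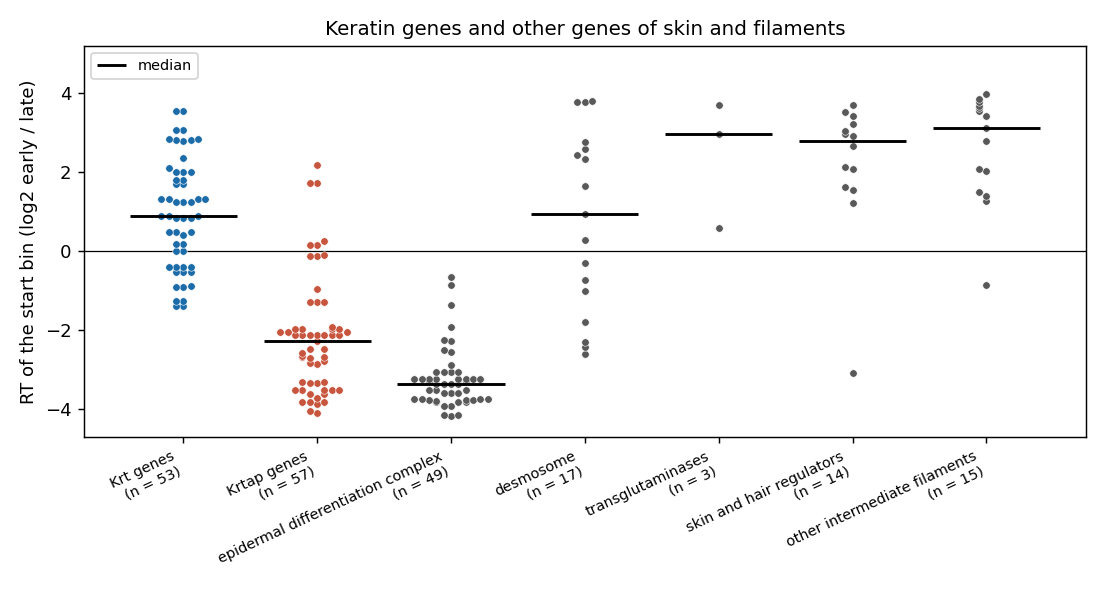
RT of the start bin (log2 early over late, vertical axis) of the Krt and Krtap genes beside 5 lists of other skin or filament genes (horizontal axis), with a point per gene and a line at each median. Krt genes have a median of 0.89 and Krtap genes of -2.28, against -3.36 for the epidermal differentiation complex and 3.11 for other intermediate filaments.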

How the data were processed

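Population-based Repli-seq of F121-9 mESCs comprised 4 libraries, with 2 per S-phase fraction. The authors normalized reads to RPM and formed the log2 ratio of the early to the late fraction in 50 kb bins, and the deposited log2 values, 1 per bin (51427 bins, 47928 on chromosomes 1 to 19), were used unchanged. Bowtie2, SAMtools, bedtools and mm10 are named in the submitters' processing notes. Smoothing and the combination of replicates are not given in the sources used here, and whether replicates came from separate cultures is not stated.

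Gene starts were taken by strand from GENCODE vM21, and members over 1 Mb apart were split into clusters. The noise SD came from the scaled median absolute deviation of each flat bin (slope up to 2.5 log2 per Mb over 5 bins) from the mean of its neighbors. It covers bin-to-bin noise only. Genes named were the extremes, ends and largest steps of each cluster, its neighbors, and the role and comparison lists. Members and lists were chosen with earlier results of these data known. Promoters and synonyms are from RefSeq (GRCm38.p6), and all 88 member windows matched the genome. The steps were tested on simulated profiles. Python 3.11.15, numpy 2.4.6, pandas 2.3.3, scipy 1.17.1 and matplotlib 3.10.9 were used.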

Additional observations from a re-analysis of the deposited data

How the results depend on the processing

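Of 104 recomputed values under the alternatives 90 stayed within their limit, 14 moved past it and no RT value changed sign. The limit was the noise SD for RT values, the exact 95% binomial interval for shares and 50 kb for distances. For the number of clusters and the noise SD it was a fixed factor. Taking the nearest bin with a value, or only members whose neighboring bins had one, could change nothing, as no such value was missing. Those settings are counted among the 90. Counting each bin once gave a median RT of -0.53 for all members, -0.53 for chromosome 11 and -3.33 for chromosome 16. Taking the median RT of bins as the border of early gave 50% of all members, 90% of the members outside chromosomes 11, 15 and 16 and 80.0% of all protein-coding genes. The share of early replicating background was 42.1% over bins and 72.9% with chromosome X included. A running median over 5 bins gave a lowest RT of -2.68 on chromosome 11, -0.92 on chromosome 15 and -4.05 on chromosome 16. With the border at the median RT of bins, the valley was 530 kb wide on chromosome 11 and 128 kb on chromosome 15, and the crossing lay 103 kb beyond Krtap11-1. The cause of these shifts was not tested beyond the construction of each alternative. The leftmost coordinate, the mean over the gene body and the mean of 3 bins moved no result past its limit, and 6 clusters were found at every gap tried. With 1 value per bin, replicate error, read depth and differences between the parental genomes are unknown. Leaving out each replicate was not run. No paired analysis was possible because both replicates enter the same single RT column.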

Other observations

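Genes with keratin in their names that the rule did not take had RT values across the range. Krtcap2, Krtcap3 and Krtdap, protein-coding genes outside the clusters, had 3.79, 3.40 and 3.22. Krt74, a pseudogene in this annotation that lies among the inner root sheath keratins of chromosome 15, had -0.41, the processed pseudogene Krtap19-9a had -3.71 and the processed pseudogene Krt8-ps on chromosome 7 had -2.92, where the Krt8 gene itself had 3.06. Some genes beside the Krtap members carry a clone name in the annotation and a Krtap synonym in RefSeq, as Gm10272 on chromosome 10 (Krtap12-4), which had an RT of 2.18.

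Bins with at least 5 protein-coding starts were rarely late replicating. Of 233 such bins on chromosomes 1 to 19, 22 (9.44%) had an RT below 0, and 6 of these 22 hold a Krt or Krtap start. Of the 13 with an RT below -2, 5 hold one. In all 8 of the 233 bins hold a member.

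The desmosomal cadherin genes on chromosome 18 also lie along a slope, from Dsc3 at -2.60, Dsc2 at -2.44 and Dsc1 at -2.31 through Dsg1c at -1.79, Dsg1a at -0.72, Dsg1b at -0.29, Dsg4 at 0.29 and Dsg3 at 0.94 to Dsg2 at 1.65.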
